A study of Mus musculus with 6 samples.

Results

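The immunoglobulin Fc receptor genes Fcer1a, Fcer1g, Fcgr1, Fcgr2b, Fcgr3, Fcgr4 and Fcgrt were examined in mouse neutrophil progenitors that expressed either of 2 forms of the transcription factor C/EBPα. They were taken by gene symbol, as a family. Each of the 7 genes had 1 probe set on the array, out of 19505 genes with a symbol. Earlier results of these data were known when the family and the companion lists below were chosen. HoxB8 neutrophil progenitors are blood progenitors kept growing in an immature state by the homeobox factor Hoxb8. One group expressed WT-C/EBPα (WT, 3 arrays) and the other K313-C/EBPα (K313, 3 arrays), a form associated with acute myeloid leukaemia. All 6 samples had spent 1 day in a medium for differentiation that held SCF supernatant, fetal calf serum and β-mercaptoethanol, and total RNA was hybridised to Affymetrix Mouse Clariom S arrays. The labels do not say how the C/EBPα forms were introduced, whether the cells kept their own Cebpa gene, whether a group was 1 clone, or whether its 3 samples were separate cultures. If they were not, the spread behind each p-value is technical only.

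Fc receptors bind the constant part of antibodies and so let a cell respond to what an antibody has coated. Fcgr1, Fcgr3 and Fcgr4 encode activating receptors for IgG. They signal through the common γ chain, encoded by Fcer1g, whose tyrosine motif is phosphorylated by Src family kinases and then recruits the kinase Syk. Fcgr2b encodes the inhibitory IgG receptor, which carries its own inhibitory tyrosine motif and recruits the lipid phosphatase encoded by Inpp5d. Fcer1a encodes the IgE-binding chain of the high-affinity IgE receptor of mast cells and basophils, which also contains the β chain encoded by Ms4a2. Fcgrt encodes the neonatal Fc receptor, a relative of MHC class I that pairs with β2-microglobulin and returns IgG to the blood in place of degrading it.

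The question was whether the K313 form altered the set of Fc receptors these cells transcribed. Fcgr4 was lower in K313 and the other 6 genes did not pass the test. All levels are deposited log2 values after RMA, and limma was fitted to all 22206 probe sets. At a Benjamini-Hochberg adjusted p under 0.05, 1 of 7 members was called lower and 0 higher. An unadjusted p under 0.05 was found in 4 of the 7 members and in 17.8% of all probe sets. Over all probe sets 7.75% were called, 3.97% lower and 3.77% higher. The median change of the members was -0.13 on the log2 scale, against 0.02 over all probe sets. The 2 groups did not overlap in 5 of the 7 members, 4 lower and 1 higher in K313, where 21.9% of all probe sets did not overlap.

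Some facts of the whole series bear on these comparisons. Arrays of 1 group correlated at 0.994 to 0.996 across probe sets and arrays of different groups at 0.983 to 0.989. The neutrophil progenitor markers Mpo, Prtn3, Ctsg and Elane read above 11 in all 6 arrays. Lower levels in the same list were those of Gfi1 (9.73 to 10.72), Cebpe (9.88 to 10.23), Csf3r (9.50 to 11.14) and Fcnb (5.88 to 7.08). Among 11 late neutrophil markers, Ltf, Camp, Retnlg and Mmp9 read below 4 in all 6 arrays. Cxcr2 read 8.24 to 10.52 and, in K313, Mmp8 read 12.69 to 13.28. The cells also held some transcripts of mast cells, basophils and eosinophils: Cpa3 read 16.72 to 17.33, Hdc 15.86 to 16.88 and Prg2 13.01 to 15.72. Hdc (-0.74 ± 0.17, SE, limma adjusted p = 0.0206) and Prg2 (-1.77 ± 0.29, SE, limma adjusted p = 0.00227) were lower in K313. Cpa3 was not called. Other markers of the same lists read low in all 6 arrays: Tpsab1 2.74 to 3.01, Tpsb2 4.55 to 5.00, Ccr3 3.64 to 4.29 and Ear6 3.65 to 3.97. The groups differed in Y-linked genes as well. Eif2s3y read 3.11, 2.93 and 7.03 in WT and 12.09 to 12.37 in K313, and Uty read 3.72, 3.78 and 6.81 in WT and 11.67 to 12.37 in K313. WT replicate 3 lay nearer to K313 than the other WT arrays did in these genes, in Mmp8 (7.30 against 5.62 and 5.15) and in Ms4a6c (8.47 against 7.64 and 6.97). Its correlations with the K313 arrays were 0.987 to 0.989, and those of the other WT arrays 0.983 to 0.986. Without it 1 of the 7 members was called, Fcgr4, and 1437 of all probe sets. Hoxb8 itself was lower in K313, at 8.06 to 8.53 against 12.45 to 13.49 in WT. The part of these differences in the Fc receptor values was not tested, and in bulk RNA fewer cells of a type cannot be told apart from less RNA per cell.

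Fcgr4, the activating receptor for IgG2 subclasses that monocytes, macrophages and neutrophils carry, read 7.32, 6.93 and 7.35 in WT and 6.39, 5.78 and 5.40 in K313. All 3 K313 arrays lay below all 3 WT arrays, and the K313 values were more spread (SD 0.50 against 0.23, n = 3 each). The mean level fell by 1.34 ± 0.24 on the log2 scale (SE, n = 3 per group, limma adjusted p = 0.00458). K313 signal was 39.4% of the WT signal, with an unadjusted 95% interval of 27.3% to 57.0%. Among the 882 probe sets called lower in K313, 273 had a larger fall than Fcgr4. Its call held in 13 of 14 alternative settings, WT replicate 3 left out among them (-1.27, adjusted p = 0.0230). It was lost with ordinary variance for each probe set (adjusted p = 0.172).

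Fcgr3 encodes the activating low-affinity IgG receptor of myeloid and natural killer cells. It read 16.20, 16.78 and 16.56 in WT and 16.13, 15.90 and 15.73 in K313. The groups did not overlap, but the highest K313 array was within 0.07 of the lowest WT array. The difference of -0.59 ± 0.19 (SE, n = 3 per group) did not pass the limma test (adjusted p = 0.0983, unadjusted 95% interval -1.01 to -0.17). It passed when limma's prior followed intensity and was robust (adjusted p = 0.0264) and without WT replicate 1 (-0.75, adjusted p = 0.0445).

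Fcgr1, the high-affinity IgG receptor of monocytes and macrophages, was the member whose K313 arrays were all the higher ones. It read 7.31, 7.39 and 7.30 in WT and 7.67, 8.02 and 7.64 in K313. The difference of 0.44 ± 0.16 (SE, n = 3 per group) did not pass the limma test (adjusted p = 0.159, unadjusted 95% interval 0.09 to 0.80). It passed under none of the 14 alternative settings, whose adjusted p ran from 0.115 to 0.451.

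Fcgr2b, the inhibitory IgG receptor, overlapped between the groups. It read 14.98, 14.85 and 15.07 in WT and 15.04, 14.92 and 14.99 in K313, and the difference was 0.02 ± 0.15 (SE, n = 3 per group, limma adjusted p = 0.976). K313 signal was 101% of WT with an unadjusted 95% interval of 80.4% to 127%, an interval that does not contain the 39.4% measured for Fcgr4. Fcgr2b and Fcgr3 encode closely similar extracellular parts, and whether their probes respond to each other's transcripts was not tested.

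Fcer1g, the shared signalling chain, was close to equal in the groups. It read 15.98, 15.89 and 15.89 in WT and 15.76, 15.74 and 15.88 in K313. Its values did not overlap by a margin of 0.01, and the difference of -0.13 ± 0.15 (SE, n = 3 per group) did not pass the limma test (adjusted p = 0.752, unadjusted 95% interval -0.45 to 0.20). The chain on which the activating receptors depend was therefore measured at 91.6% of WT, with an interval of 73.2% to 115%.

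Fcer1a, the IgE-binding chain, stayed at the low end of the scale in all 6 arrays. It read 3.46, 3.87 and 3.55 in WT and 3.72, 3.69 and 3.52 in K313, where the lower quartile of an array lay between 3.69 and 3.79, so its signal cannot be told from background. The groups overlapped and the difference was 0.02 ± 0.17 (SE, n = 3 per group, limma adjusted p = 0.978). Ms4a2, the β chain of the same receptor, read 10.78, 10.61 and 10.27 in WT and 11.38, 10.57 and 10.23 in K313. The groups overlapped in Ms4a2 too, and it differed by 0.17 ± 0.27 (SE, n = 3 per group, limma adjusted p = 0.825).

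Fcgrt, the neonatal receptor, also read at the low end. Its levels were 4.33, 4.41 and 3.99 in WT and 3.30, 3.85 and 3.64 in K313. The groups did not overlap, and the difference of -0.65 ± 0.19 (SE, n = 3 per group) missed the threshold (limma adjusted p = 0.0691, unadjusted 95% interval -1.07 to -0.23). It passed with quantile normalization (-0.70, adjusted p = 0.0398) and with a common array median (-0.72, adjusted p = 0.0315). Both groups lay below the array medians of 5.01 to 5.13, where a level cannot be told from background. Its partner B2m read 17.95, 17.81 and 17.84 in WT and 17.62, 17.54 and 17.64 in K313, without overlap, and its change was -0.27 ± 0.15 (SE, limma adjusted p = 0.400).

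**Figure D1:**
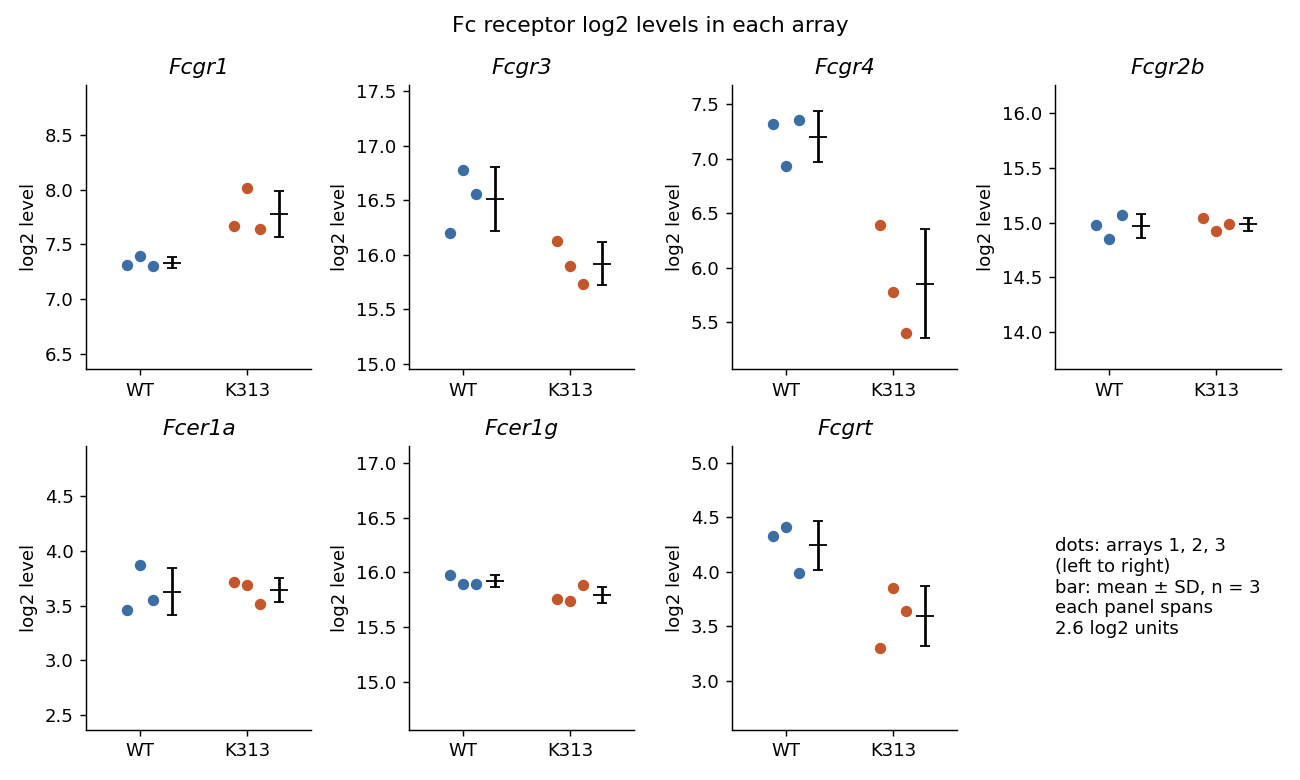
Log2 level (vertical axis, deposited RMA values) of the 7 Fc receptor genes in each of the 3 WT (blue) and 3 K313 (orange) arrays, with the mean and SD of each group beside the dots. Fcgr4 shows the widest gap between the groups, 7.20 against 5.86 on average, while Fcgr2b and Fcer1a overlap.

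**Figure D2:**
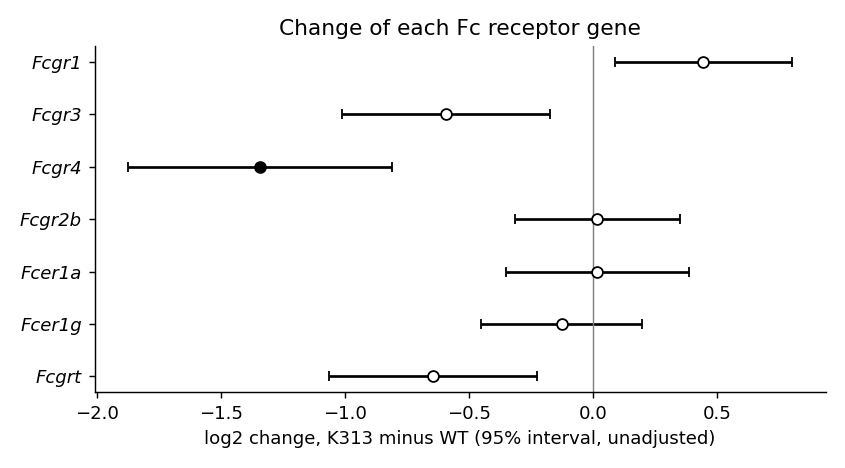
Log2 change, K313 minus WT (horizontal axis), of each Fc receptor gene with its unadjusted 95% interval. The filled dot, Fcgr4, passed the limma test after adjustment over all probe sets and the open dots did not.

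Log2 ratios within an array set members against each other. The ratio of Fcgr4 to Fcgr2b differed by -1.36 and did not overlap between the groups (SD 0.14 in WT and 0.47 in K313, n = 3 each, exact two-sided permutation p = 0.10). The ratio of Fcgr3 to Fcgr2b differed by -0.61 and that of Fcgr1 to Fcgr2b by 0.43, both without overlap and both at an exact permutation p of 0.10. Fcgr4 over Fcgr3 differed by -0.75 with overlap (exact permutation p = 0.20). Relative to the inhibitory receptor, the measured differences of the activating receptors had both signs. Because Fcgr2b itself differed by only 0.02, the ratios to it nearly repeat the changes of the single genes. Of those activating receptors only Fcgr4 passed the limma test. With 3 arrays a group 0.10 is the smallest p that 20 splits allow, so none of the 5 ratios computed could pass 0.05, and their adjusted p was 0.125 or 0.20.

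Fcgr2b, Fcgr4 and Fcgr3 lie side by side on chromosome 1, Fcer1g lies farther along the same stretch, Fcer1a lies elsewhere on that chromosome, Fcgr1 on chromosome 3 and Fcgrt on chromosome 7. In the stretch of 16 measured genes from Dusp12 to Ppox, 2 were lower in K313 and 0 higher. Besides Fcgr4 this was Cfap126, a cilium protein gene next to Fcgr3, which read 8.87 to 9.24 in WT and 8.26 to 8.46 in K313. All K313 arrays were the lower ones, and Cfap126 fell by 0.71 ± 0.16 on the log2 scale (SE, n = 3 per group, limma adjusted p = 0.0208). Over the 3 nearest measured genes on each side of every member, 30 distinct genes apart from the members themselves, 3 were lower and 0 higher, beside 3.97% and 3.77% of all probe sets. The other 2 were Txnip near Fcgr1 (-0.70 ± 0.17, SE, limma adjusted p = 0.0292), an arrestin-like inhibitor of thioredoxin, and Flt3l next to Fcgrt (-0.63 ± 0.17, SE, limma adjusted p = 0.0443), the ligand of the receptor Flt3.

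**Figure D3:**
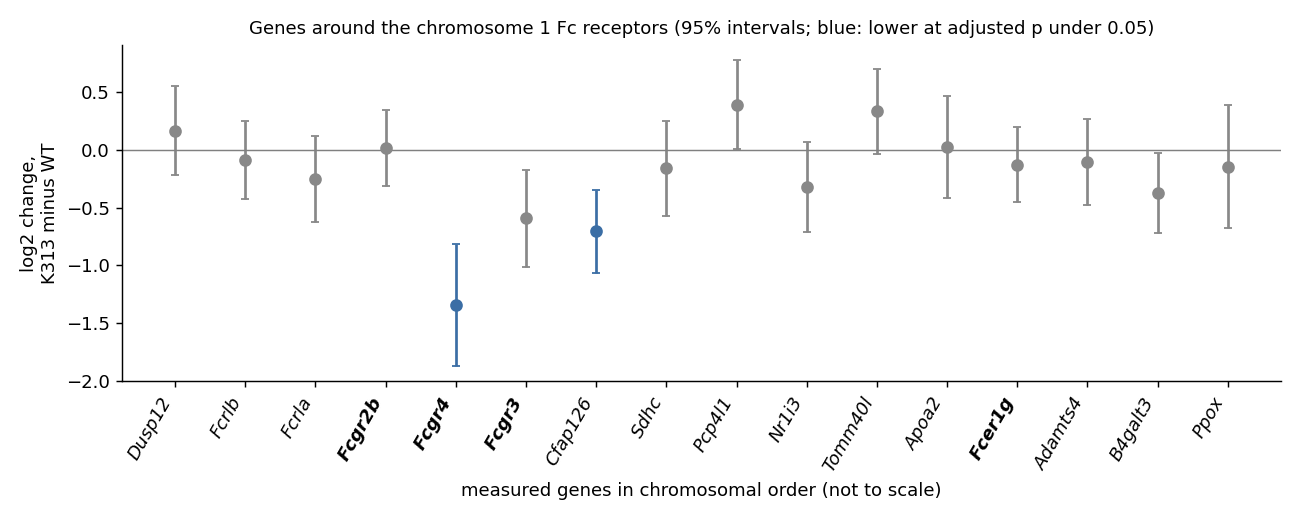
Log2 change, K313 minus WT (vertical axis), with unadjusted 95% intervals, of 16 measured genes in their order on chromosome 1, with Fc receptor genes in bold. Fcgr4 and Cfap126 (blue) were lower at an adjusted p under 0.05, and Fcgr2b, next to Fcgr4, lies at 0.02.

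Of these 3 adjacent genes Fcgr4 was called and Fcgr3 and Fcgr2b were not, so the 250 bases before each one's start are shown, in the direction of transcription, from the RefSeq table of GRCm38.p6. Capitals mark letters that match a C/EBP core (TTGCNNAA), a PU.1 core (GAGGAA) or a GATA core (AGATAA or TGATAA) on either strand, and no matches overlapped.
Fcgr4 (chr1:171018676-171018925, plus strand): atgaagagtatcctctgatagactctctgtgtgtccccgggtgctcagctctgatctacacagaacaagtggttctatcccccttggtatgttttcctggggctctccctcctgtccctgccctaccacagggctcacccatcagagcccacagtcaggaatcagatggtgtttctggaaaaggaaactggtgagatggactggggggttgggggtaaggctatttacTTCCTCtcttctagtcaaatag
Fcgr3 (chr1:171059404-171059653, minus strand, the first of 2 windows in the table): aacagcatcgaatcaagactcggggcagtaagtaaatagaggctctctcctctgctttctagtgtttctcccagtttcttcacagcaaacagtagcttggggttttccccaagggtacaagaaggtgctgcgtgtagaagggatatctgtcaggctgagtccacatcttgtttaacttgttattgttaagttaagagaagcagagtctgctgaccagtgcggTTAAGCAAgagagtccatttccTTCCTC
Fcgr2b (chr1:170976072-170976321, minus strand): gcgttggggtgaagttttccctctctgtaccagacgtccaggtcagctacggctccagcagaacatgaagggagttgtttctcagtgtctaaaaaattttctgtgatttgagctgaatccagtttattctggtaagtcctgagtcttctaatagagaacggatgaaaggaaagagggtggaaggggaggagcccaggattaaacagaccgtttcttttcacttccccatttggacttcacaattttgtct
The Fcgr4 window held the PU.1 core, 22 to 17 bases before the start, and no C/EBP core. The Fcgr3 window held both, the C/EBP core 28 to 21 and the PU.1 core 6 to 1 bases before the start. The Fcgr2b window held none of the 3 cores. Over all 7 members, 3 windows held a C/EBP core (Fcgr3, Fcer1a and Fcgrt), 4 a PU.1 core (Fcgr1, Fcgr3, Fcgr4 and Fcer1a) and 1 a GATA core (Fcer1a). Of 32851 windows of that length in the table, 9.56% held the C/EBP core, 23.3% the PU.1 core and 16.6% the GATA core. A match describes letters only.

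A list of signal chains and partners was counted next. It held Ms4a2, Cd247 and B2m, none of which was called, and the adaptors of other receptors Tyrobp and Hcst. Of 5 measured, 1 was called lower and 0 higher, beside 3.97% and 3.77% of all probe sets. The gene called was Tyrobp, the adaptor DAP12 that carries the same kind of activating motif as the γ chain. It read 12.48, 12.38 and 12.46 in WT and 10.97, 10.82 and 11.21 in K313, and fell by 1.44 ± 0.16 on the log2 scale (SE, n = 3 per group, limma adjusted p = 0.000140). The groups were far apart in Tyrobp and nearly touched in Fcer1g. The log2 ratio of Fcer1g to Tyrobp was higher in each K313 array than in any WT array, by 1.31 on average (SD 0.04 in WT and 0.13 in K313, n = 3 each, exact permutation p = 0.10). Hcst and Cd247 differed by 0.23 ± 0.21 and -0.01 ± 0.18 (SE).

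Among 6 measured receptors that use the γ chain without binding antibody, 1 rose and 0 fell, beside 3.77% and 3.97% of all probe sets. Clec4e, the lectin Mincle that recognises mycobacterial glycolipids and dead cells, read 12.75, 12.46 and 13.06 in WT and 14.52, 14.45 and 14.48 in K313. It rose by 1.73 ± 0.18 (SE, n = 3 per group, limma adjusted p = 7.86e-05), the opposite direction to Fcgr4. Its relative Clec4d read 10.39, 9.38 and 9.61 in WT and 10.57, 10.54 and 10.78 in K313, and missed the threshold at 0.84 ± 0.24 (limma adjusted p = 0.0608). Clec4n, Gp6, Oscar and Ncr1 had means below 5 in both groups. Without WT replicate 1, 2 of the 6 passed. Of 11 Fc receptor relatives, 1 rose and 0 fell, a share near the 7.75% called over all probe sets, and 7 had means of at most 5 in both groups. The gene called was Fcrl1, an Fc receptor-like protein of B cells, from 4.48, 4.69 and 4.72 in WT to 5.37, 5.49 and 5.79 in K313 (0.92 ± 0.17, SE, limma adjusted p = 0.00526). Its WT values lay below the array medians, where a level cannot be told from background, so the size of that change is uncertain. Fcer2a, the low-affinity IgE receptor CD23, differed by -0.12 ± 0.19, and Trim21, the cytosolic antibody receptor, by 0.24 ± 0.24.

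In the activating signal downstream of the receptors, 6 of 30 measured genes fell and 1 rose, where 3.97% of all probe sets fell and 3.77% rose, and the median change was -0.26 against 0.02 over all probe sets. Adaptors were among those that fell. Lat2, the adaptor NTAL of mast cells and B cells, fell by 2.77 ± 0.18 on the log2 scale (SE, n = 3 per group, limma adjusted p = 2.92e-06), from 9.29 to 9.36 in WT to 6.29 to 6.88 in K313. Its T cell counterpart Lat fell by 1.12 ± 0.18, Grb2, the adaptor that links to Ras, fell by 0.93 ± 0.17, and Gab2, which brings in PI3-kinase, fell by 0.99 ± 0.19. Rasgrp4, a Ras activator of mast cells, fell by 2.40 ± 0.23, and the Src family kinase Fyn fell by 2.16 ± 0.22. Tec, a kinase that acts on phospholipase C, went the other way, from 12.38 to 12.79 in WT to 13.77 to 14.09 in K313, a rise of 1.34 ± 0.17. Limma adjusted p-values of these genes were at most 0.00645.

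Syk, the kinase that docks on the γ chain, read 11.60, 11.85 and 11.91 in WT and 11.37, 11.29 and 11.55 in K313. The K313 arrays were the lower ones without overlap, but the difference of -0.38 ± 0.16 (SE, n = 3 per group) did not pass the limma test (adjusted p = 0.235). The phospholipase Plcg2 (-0.64 ± 0.20), Btk (-0.36 ± 0.17) and Vav1 (0.00 ± 0.20) did not pass either. Lyn and Itpr1 were not analysed here.

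In the inhibitory signal, 6 of 19 measured genes fell and 0 rose, beside the same 3.97% and 3.77% of all probe sets, and the median change was -0.39 against 0.02. Dok2, an adaptor that restrains Ras, read 12.95, 12.86 and 12.89 in WT and 11.46, 11.65 and 11.50 in K313. The groups were far apart, and it fell by 1.36 ± 0.15 (SE, n = 3 per group, limma adjusted p = 0.000118). The tyrosine phosphatase Ptpn22 fell by 1.32 ± 0.17, the lipid phosphatase Inpp4b fell by 1.19 ± 0.19, the inhibitory receptor Cd300a fell by 0.80 ± 0.17, the ubiquitin ligase Cblb fell by 0.84 ± 0.21 and the phosphatase Ptpn6, SHP-1, fell by 0.78 ± 0.18 (limma adjusted p between 0.000512 and 0.0281). Inpp5d, the lipid phosphatase through which Fcgr2b acts, overlapped between the groups. It read 12.03, 12.91 and 12.02 in WT and 11.90, 12.29 and 11.99 in K313 (-0.26 ± 0.24, SE, limma adjusted p = 0.673). Without WT replicate 1 the count of this list was 3 in place of 6.

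**Figure D4:**
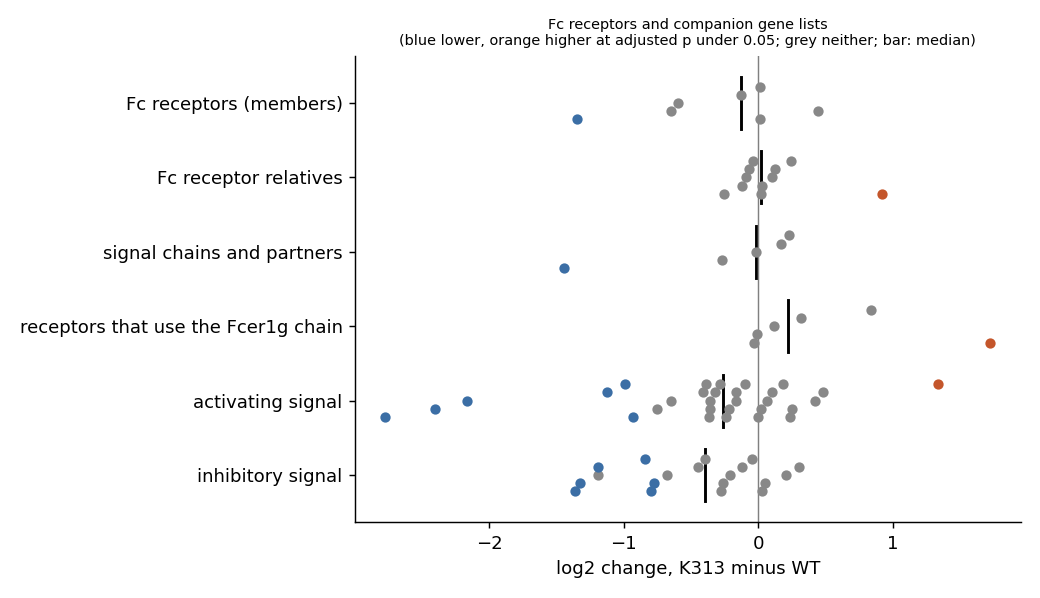
Log2 change, K313 minus WT (horizontal axis), of each measured gene of the Fc receptor family and of 5 companion lists, with the median of each list as a bar. Blue dots fell and orange dots rose at an adjusted p under 0.05, with 6 falls each in the activating and inhibitory lists.

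Marker genes of cell types that carry these receptors also differed between the groups, and their part in the Fc receptor values was not tested. No marker reads 0 on this scale, and list levels are means of the log2 levels over a list's probe sets. The counts of every marker list stand beside 3.77% of all probe sets called higher and 3.97% called lower. Of 12 monocyte and macrophage markers, 5 rose and 2 fell, and the mean level was 6.85 to 7.21 in WT and 7.86 to 8.08 in K313. Cd14 (4.45 ± 0.32), Ms4a6c (4.32 ± 0.32), F13a1 (2.95 ± 0.26), Ly6c2 (1.77 ± 0.46) and Ccr2 (0.87 ± 0.23) rose. Cx3cr1 fell by 2.04 ± 0.21 on the log2 scale and Adgre1, the antigen F4/80, fell by 0.78 ± 0.19. Of 11 late neutrophil markers, 4 rose and 1 fell, with a mean level of 5.06 to 5.51 in WT and 6.32 to 6.97 in K313: the collagenase gene Mmp8 rose by 6.99 ± 0.43 and the chemokine receptor gene Cxcr2 fell by 2.08 ± 0.15. Of 9 neutrophil progenitor markers, 4 rose and 1 fell (12.40 to 12.53 against 13.05 to 13.27), and the elastase gene Elane rose by 3.29 ± 0.28. The fall was in Csf3r, by 1.03 ± 0.22 on the log2 scale.

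Of 16 mast cell and basophil markers, 8 fell and 1 rose, beside 3.97% and 3.77% of all probe sets. Their mean level was 9.78 to 10.14 in WT and 8.95 to 9.13 in K313. Cd200r3 (-4.03 ± 0.23) and Gata1 (-3.69 ± 0.24) fell and Prss34 rose (3.98 ± 0.21), while Ms4a2 overlapped between the groups and Fcer1a read at background in both. Of the other lists, eosinophil markers had 4 falls and 1 rise among 8 genes, B cell markers 3 falls among 9, erythroid and megakaryocyte markers 3 falls among 6, T and NK cell markers 1 fall and 1 rise among 8, and dendritic cell markers 1 fall among 11. Their mean levels in WT and K313 were 8.78 to 9.10 and 8.11 to 8.49 for eosinophil, 5.80 to 5.99 and 5.12 to 5.28 for B cell and 7.15 to 7.29 and 5.76 to 6.07 for erythroid and megakaryocyte markers. They were 5.15 to 5.40 and 5.15 to 5.20 for T and NK cell and 4.41 to 4.49 and 4.33 to 4.44 for dendritic cell markers. The T and NK cell fall, Cd3g, and the dendritic cell fall, Itgax, had means below 5 in both groups. So had Mcpt4 among the mast cell falls. Some WT arrays still read above 5 (Mcpt4 5.32 and 5.01, Cd3g 5.20, Itgax 5.14). No detection test was run, so how far these levels stand above background, and the size of the falls, are uncertain.

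The genes whose 6 values most resembled those of Fcgr4 were found by the root mean square difference over the arrays, after each probe set's own mean was subtracted, among 17173 candidates. They were Cd200r2, a member of the Cd200 receptor family (difference 0.11), Ssbp3, a single-stranded DNA-binding protein gene (0.14), and Cpne2, a copine (0.14). Cd200r2 read 7.47, 7.32 and 7.48 in WT and 6.47, 6.04 and 5.71 in K313, with K313 replicate 3 the lowest array, as in Fcgr4. The choice by likeness fixed both this order and the lower level in K313, so the changes of all 3 are a description: -1.35 ± 0.20, -1.41 ± 0.18 and -1.20 ± 0.23 (SE).

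**Figure D5:**
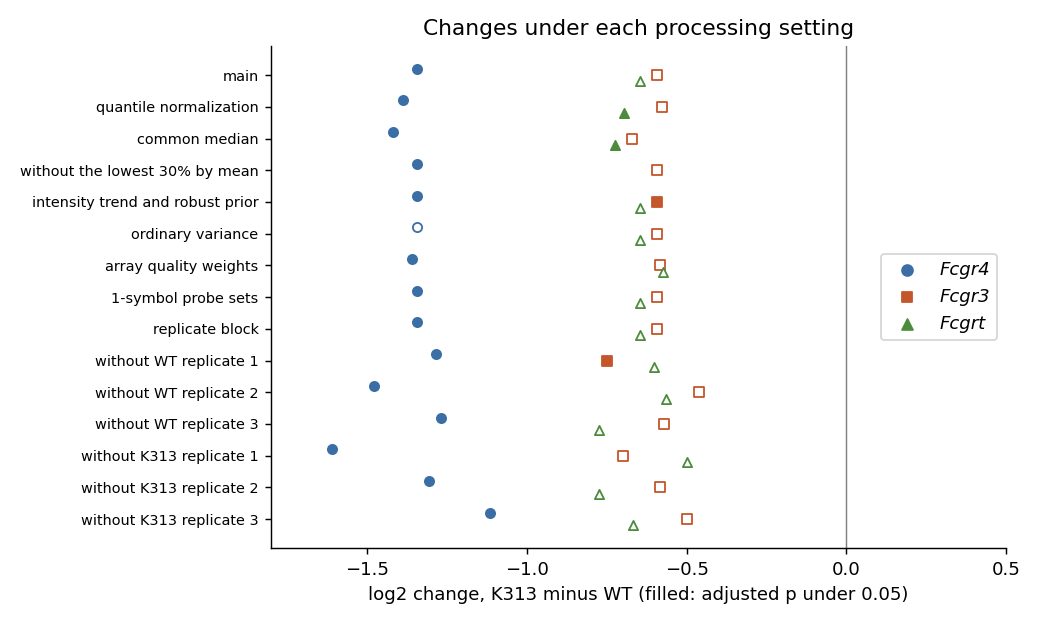
Log2 change, K313 minus WT (horizontal axis), of Fcgr4, Fcgr3 and Fcgrt under each processing setting (vertical axis), filled where the adjusted p was under 0.05. Fcgr4 stayed between -1.61 and -1.12 and Fcgr3 between -0.75 and -0.46, and Fcgrt has no value in the setting without the lowest 30% of probe sets, which removed it.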

How the data were processed

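Deposited values are log2 expression per probe set, made by the authors with RMA and the Transcriptome Analysis Console per the submitters' processing notes. No version is given in the sources used here. Because RMA equalises the arrays' probe intensity distributions, a shift in RNA content shared by all genes is lost, and folds near the low end are compressed. Medians over probe sets still ran from 5.01 to 5.06 in WT and from 5.055 to 5.13 in K313. As deposited, 838 probe sets were called higher and 882 lower. With a common array median the counts were 727 and 1064. Arrays have no read depth, and 3 per group limit the precision (median SE 0.18). Of 22206 probe sets, 19572 had 1 symbol in the platform annotation, 0 several and 2634 none.

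Groups were compared with limma 3.58.1 (R 4.3.3), lmFit with group as the only term and default eBayes, two-sided, and checked on simulated data. Members and lists were chosen with earlier results of these data known. Named by rule were all members, called genes of a companion list up to 6 with the smallest p, Ms4a2, B2m, Syk, Inpp5d and Ptpn6. So were called neighbours among the 3 nearest measured genes on each side and the 3 genes most like a called member. For markers the rule allowed up to 4 called ones a list, by smallest p. Not all of those are named, and which ones were named was not fixed by the rule. Gab2, Adgre1, Ly6c2, Ccr2, Hdc, Mcpt4, other genes named without a call and the 5 ratios were picked after their values were seen. The same replicate numbers stand in both groups, and the labels do not say whether they pair the samples. Alternatives were quantile normalization, a common array median, removal of the lowest 30% by mean, an intensity trend with robust prior, ordinary variance, array weights, 1-symbol probe sets, the replicate block and leaving out each array. All 7 members matched the RefSeq promoter table (GRCm38.p6), and the array's build is not given, so coordinates are given for the promoter windows alone.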

Additional observations from a re-analysis of the deposited data

How the results depend on the processing

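The Fc receptor family had 1 call with limma, with a low-value filter, array weights, 1-symbol probe sets and the replicate block. It had 2 with quantile normalization and a common median, where Fcgrt joined Fcgr4, and 2 with an intensity trend, where Fcgr3 did. With ordinary variance it had 0 (4 members had an unadjusted p under 0.05), Fcgr4 kept its change of -1.34 at an adjusted p of 0.172, and the counts were 496 over all probe sets, 0 for relatives, 2 for activating and 1 for inhibitory genes. The receptors that use the γ chain numbered 2 with the low-value filter, the intensity trend and array weights. When each array was left out, the family had 1 to 2 calls, all probe sets 1228 to 1465, activating genes 7 to 8 and inhibitory genes 3 to 6. Receptors on the γ chain had 1 to 2, and relatives and the list of signal chains and partners 1 each. Fcgr4 ran from -1.61 to -1.12 in these fits (adjusted p 0.00119 to 0.0244).

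Near 0 the sign was not settled. Fcer1a was -0.015 with quantile normalization and -0.06 with a common median, and -0.067 to 0.138 when arrays were left out. Fcgr2b was -0.06 with a common median, -0.011 with array weights and -0.042 to 0.068 when arrays were left out. With the replicate block, Fcgr4 changed by -1.34 (adjusted p = 0.00482) and 1546 probe sets passed in place of 1720. The deviations of same-numbered arrays correlated at -0.06, 0.03 and -0.06, and those of different-numbered arrays at -0.08 to 0.14. No pairing by number was seen, but with 3 arrays a group a weak pairing would not show. The low-value filter removed Fcer1a and Fcgrt. The cause of these shifts was not tested.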
